A study of Mus musculus with 8 samples.

Results

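The 10 genes described here encode the TGF-β ligands *Tgfb1* and *Tgfb3*, the receptors *Tgfbr1*, *Tgfbr2* and *Tgfbr3*, the signal transducers *Smad2*, *Smad3*, *Smad4* and *Smad7*, and the ligand anchor *Lrrc32*. They were chosen by gene symbol from the 23284 genes of the RNA-seq tables, and each had 1 row in every table. Their values were not a criterion, but earlier results of these data were known when they were chosen. All cells came from the DO11.10 Tg strain, in which a transgenic TCR recognizes an OVA peptide, and 2 libraries were made for each of 4 groups. Naive CD4 T cells were sorted from the spleen as CD44low CD62Lhi cells and were not cultured. The effector groups were the same kind of naive cells after 6 days with OVA peptide on irradiated splenocytes freed of T cells. The Th1 condition combined 30 U/ml of IL-2 with 100 U/ml of IL-12 and 1 µg/ml of an Ab against IL-4. The Th2 condition combined 30 U/ml of IL-2 with 100 U/ml of IL-4 and 10 µg/ml of an Ab against IFNγ. The Th17 condition combined 10 ng/ml each of IL-6, IL-1β and IL-23 with 10 µg/ml each of Abs against IL-4 and IFNγ, and TGF-β is not among the listed additions of any culture. The mice were young adults, and the labels do not say whether a library pooled several of them.

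TGF-β is secreted as a latent complex that has to be opened before the cytokine can bind its receptors. LRRC32, also called GARP, holds the latent form on the cell surface, and TGFBR3, also called betaglycan, presents ligand to the signaling receptors. The active ligand binds the type II receptor TGFBR2, which phosphorylates the type I receptor TGFBR1. TGFBR1 then phosphorylates SMAD2 and SMAD3, which enter the nucleus with SMAD4, while SMAD7 is a feedback inhibitor that binds the type I receptor. In CD4 T cells this pathway restrains activation, and together with other cytokines it takes part in the differentiation of regulatory T cells and Th17 cells.

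In all 3 effector subsets, the ligand and anchor genes *Tgfb1*, *Tgfb3* and *Lrrc32* were higher than in naive cells, and *Tgfbr2*, *Tgfbr3*, *Smad2*, *Smad4* and *Smad7* were lower. *Smad7* had the largest fall, 5.87-fold to 8.80-fold between group means of FPKM. The exceptions to a shared direction were *Tgfbr1*, which fell in Th1 and Th17 cells only, and *Smad3*, which fell in Th1 cells and rose in Th17 cells. FPKM counts the fragments sequenced from a gene for each kilobase of its exons, scaled to the mapped fragments of the library, and levels are given on this scale. Differences are given on the log2(FPKM + 1) scale, where changes of genes with low FPKM are understated. They were tested with limma in one fit of all 8 libraries, and p-values received a Benjamini-Hochberg adjustment across 11198 genes (mean FPKM of 1 or more), which included all 10 members. A gene is called where the adjusted p-value was under 0.05.

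**Figure D1:**
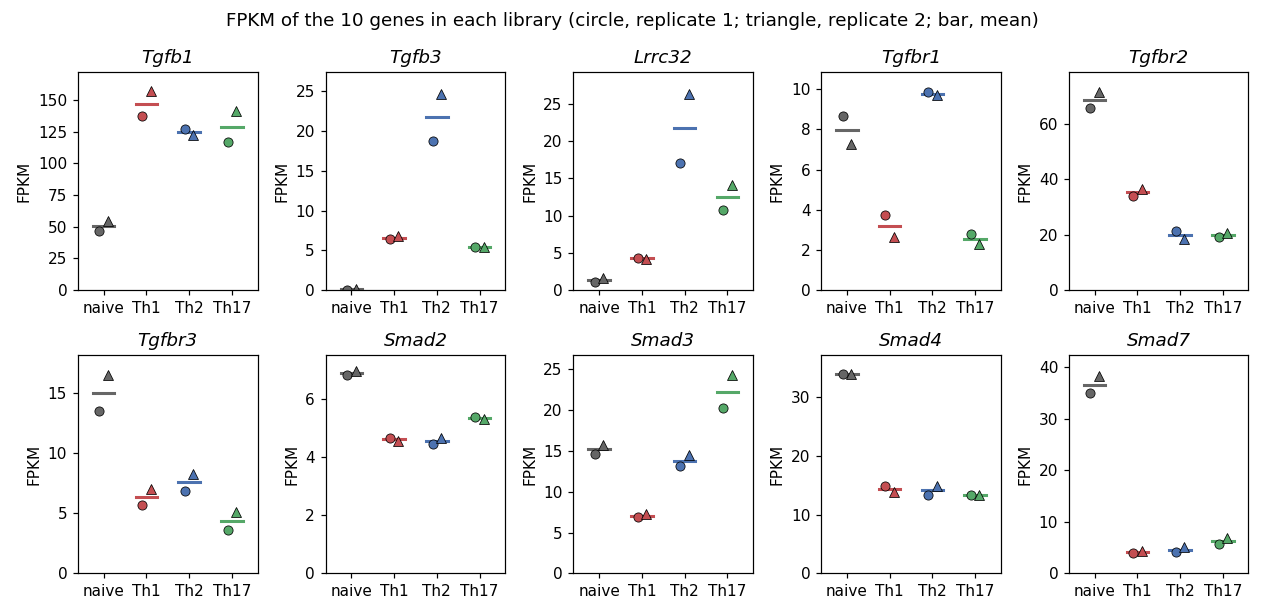
FPKM (linear axis from 0) of the 10 genes in naive, Th1, Th2 and Th17 libraries. Circles are replicate 1, triangles are replicate 2 and bars are the mean of both. *Smad7* sits at 35.0 and 38.2 in the naive libraries and under 7 in each effector library, whereas *Tgfbr1* in Th2 libraries lies above both naive libraries.

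Against naive cells, 3 members were called higher and 7 lower in Th1 cells, where 33.8% of all tested genes were called higher and 33.5% lower. In Th2 cells 3 were called higher and 5 lower, against 31.8% and 38.7% of all genes. In Th17 cells 4 were called higher and 6 lower, against 37.5% and 29.8%. So many genes differed between naive and cultured cells that a call alone says little about these members, and their sizes and directions are given below. The median difference of the 10 members was -0.97, -0.32 and -0.80 in Th1, Th2 and Th17 cells, beside -0.01, -0.11 and 0.08 over all tested genes. The 3 comparisons share the naive libraries.

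Among the ligands, *Tgfb1* was the most abundant member in each effector library. FPKM values in the naive libraries were 46.8 and 54.6, those in Th1 137 and 157, those in Th2 127 and 123 and those in Th17 117 and 141. All effector values lay above both naive values, and the Th17 values spanned those of Th2 and overlapped those of Th1. Relative to naive cells, the difference was 1.52, 1.29 and 1.33 in Th1, Th2 and Th17 cells, each with a standard error of 0.14 and adjusted p-values of 7.24e-05, 0.00014 and 0.000129 (limma). No pair of subsets differed past the threshold, with adjusted p-values of 0.215 to 0.832. *Tgfb1* lies on the plus strand of chromosome 7 from 25687002 to 25704996 in mm10.

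*Tgfb3*, the second ligand, was close to undetected in naive cells and highest in Th2 cells. In the naive libraries it stood at 0.069 and 0.138 FPKM, in the Th1 libraries at 6.40 and 6.78, in the Th2 libraries at 18.8 and 24.7 and in the Th17 libraries at 5.43 and 5.42. The naive values correspond to an estimated 5 and 10 fragments, so the size of the rise depends on the pseudocount. *Tgfb3* passed the filter on mean FPKM only through the effector libraries, which favoured its calls as higher than naive. Compared with naive cells, the values differed by 4.35 in Th2, 2.78 in Th1 and 2.54 in Th17 cells, with a standard error of 0.13 and adjusted p-values of 4.38e-07 to 4.58e-06 (limma). With a pseudocount of 0.1 the differences were 6.75, 5.06 and 4.79. Th2 cells exceeded Th1 cells by 3.30-fold and Th17 cells by 4.0-fold in mean FPKM (log2 differences of Th1 and Th17 from Th2 of -1.57 and -1.81, adjusted p = 0.000156 and 0.000134). Th1 and Th17 cells did not differ past the threshold (0.24, adjusted p = 0.248). *Tgfb3* made up 0.146% and 0.252% of the summed FPKM of both ligand genes in naive libraries, whereas Th1 libraries reached 4.15% and 4.46%, Th2 libraries 12.9% and 16.7%, and Th17 libraries 3.70% and 4.43%. It lies on the minus strand of chromosome 12 from 86056743 to 86079041, and 12.4% of its annotated exon bases are shared with transcripts of the opposite strand, *Gm37804* and *Gm48008*, whose reads could have been counted with it.

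*Lrrc32* rose in every subset, with the order Th2, Th17, Th1 and naive. The naive libraries had 1.04 and 1.59 FPKM, the Th1 libraries 4.36 and 4.15, the Th2 libraries 17.1 and 26.4 and the Th17 libraries 10.8 and 14.1. No group overlapped another, but the 2 Th2 libraries lay further apart than those of the other groups. The difference from naive cells was 3.28 in Th2, 2.54 in Th17 and 1.19 in Th1 cells, with a standard error of 0.22 and adjusted p-values of 1.6e-05, 6.11e-05 and 0.00281 (limma). The Th1 level was below that of Th2 cells (difference -2.08, adjusted p = 0.000473) and of Th17 cells (-1.35, adjusted p = 0.00545). The step between Th17 and Th2 cells, -0.74 with an adjusted p-value of 0.0356, lost its call when either Th1, either Th17 or the second Th2 library was left out, with adjusted p-values of 0.0603 to 0.181. It also lost its call without a filter on low values, with a pseudocount of 0.1 and in a fit of the 2 groups alone (0.0679, 0.052 and 0.0691). *Lrrc32* lies on the plus strand of chromosome 7, from 98494222 to 98501830 in the authors' tables.

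LRRC32 is known from regulatory T cells and platelets, so markers of both were read in the same libraries. The regulatory T cell markers *Foxp3* and *Ikzf2* summed to an FPKM of 8.21 and 15.4 in naive libraries, whereas Th1 gave 2.69 and 2.93, Th2 0.572 and 0.887 and Th17 4.31 and 7.33. They were lowest in Th2 and highest in naive libraries. The 4 platelet and megakaryocyte markers *Pf4*, *Itga2b*, *Gp1ba* and *Gp9* summed to 1.83 to 3.17 in naive, 1.26 to 1.44 in Th1, 5.58 to 8.92 in Th2 and 6.45 to 6.90 in Th17 libraries. This sum was lower in Th1 than in naive libraries, and Th17 lay within the Th2 range. Of the 4 markers *Pf4* alone was higher in the effector libraries than in both naive ones, with 0 and 0.114 in naive libraries, whereas Th1 gave 0.170 and 0.356, Th2 7.69 and 4.32 and Th17 5.83 and 4.96. The group means of *Pf4* had the same order as those of *Lrrc32*. They were 6.005 in Th2, 5.39 in Th17, 0.263 in Th1 and 0.057 in naive cells, with Th17 libraries inside the Th2 range. *Itga2b* was lower in every effector library (0.690 to 0.880) than in the naive ones (1.35 and 1.70), *Gp1ba* had group means of 0.920 in naive and 0.343 to 0.445 in effector cells, and *Gp9* was at most 0.07 in any library. The part of these cells in the *Lrrc32* values was not tested. In bulk RNA, fewer cells of a type and less RNA per cell cannot be told apart.

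The type I and type II receptor genes did not move together in Th2 cells. The naive libraries gave *Tgfbr1* FPKM values of 8.66 and 7.27, the Th1 libraries 3.72 and 2.64, the Th2 libraries 9.87 and 9.68 and the Th17 libraries 2.79 and 2.29. The Th2 and naive libraries were high and the Th1 and Th17 libraries low, with no overlap between these pairs of groups. *Tgfbr1* fell by 1.11 in Th1 cells and by 1.34 in Th17 cells on the log2(FPKM + 1) scale (standard error 0.15, adjusted p = 0.000599 and 0.00022, limma). In Th2 cells the difference from naive was 0.27 with an adjusted p-value of 0.153, and with the replicate number as a block 0.0499. Th2 cells exceeded Th1 cells 3.07-fold and Th17 cells 3.85-fold in mean FPKM (log2 differences of Th1 and Th17 from Th2 of -1.38 and -1.61, adjusted p = 0.000543 and 0.000382). Th1 and Th17 cells did not differ past the threshold (0.23, adjusted p = 0.327). *Tgfbr1* lies on the plus strand of chromosome 4 from 47353305 to 47414924.

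*Tgfbr2*, by contrast, was lower in all 3 subsets. FPKM values in the naive libraries were 65.6 and 71.5, those in Th1 33.9 and 36.5, those in Th2 21.3 and 18.4 and those in Th17 19.0 and 20.4. Th1 cells held an intermediate level, and the Th2 and Th17 values overlapped. Relative to naive cells, the difference was -0.94, -1.74 and -1.75 in Th1, Th2 and Th17 cells, with a standard error of 0.11 and adjusted p-values of 0.000234, 9.6e-06 and 9.84e-06 (limma). Th1 cells were higher than Th2 and Th17 cells by 0.80 in both comparisons (adjusted p = 0.00127 and 0.00209), and Th17 and Th2 cells differed by -0.0036 (adjusted p = 0.984). *Tgfbr2* lies on the minus strand of chromosome 9 from 116087695 to 116175363. The ratio of *Tgfbr1* to *Tgfbr2* FPKM within a library does not change when all values of that library are multiplied by the same factor. Quantile normalization can change it. It was 0.132 and 0.102 in naive, 0.110 and 0.0724 in Th1, 0.147 and 0.112 in Th17, and 0.464 and 0.527 in Th2 libraries, so that the Th2 libraries stood apart from the other 6.

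*Tgfbr3* fell in each subset. In the naive libraries it stood at 13.5 and 16.5 FPKM, in the Th1 libraries at 5.72 and 7.05, in the Th2 libraries at 6.85 and 8.30 and in the Th17 libraries at 3.61 and 5.11. Both naive libraries were above all effector libraries, and Th1 and Th2 overlapped. Compared with naive cells, the values differed by -1.12, -0.90 and -1.59 in Th1, Th2 and Th17 cells, with a standard error of 0.18 and adjusted p-values of 0.00132, 0.00343 and 0.000219 (limma). Th17 cells were below Th2 cells by a difference of -0.69 (adjusted p = 0.0214), a call that was lost without the second Th2 library (adjusted p = 0.126) or the first Th17 library (0.112). Th1 and Th17 cells differed by 0.47 with an adjusted p-value of 0.108, and with the replicate block of 0.00628. *Tgfbr3* lies on the minus strand of chromosome 5 from 107106570 to 107289595, and 4.54% of its annotated exon bases are shared with *Gm43422* on the same strand.

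**Figure D2:**
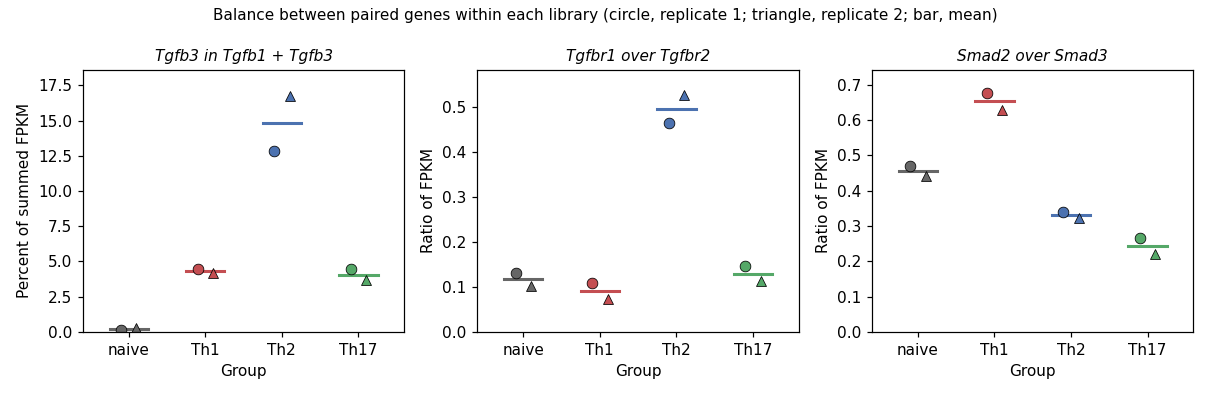
Share of *Tgfb3* in the summed FPKM of both ligand genes (percent), and FPKM ratios of *Tgfbr1* to *Tgfbr2* and of *Smad2* to *Smad3*, in each library. Circles are replicate 1, triangles are replicate 2 and bars are their mean. Th2 libraries have the highest *Tgfb3* share, 12.9% and 16.7%, and the highest *Tgfbr1* to *Tgfbr2* ratio, 0.464 and 0.527, and Th1 libraries have the highest *Smad2* to *Smad3* ratio, 0.678 and 0.629.

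Among the receptor-activated SMAD genes, *Smad3* separated the 3 subsets and *Smad2* did not. The naive libraries gave *Smad3* FPKM values of 14.6 and 15.8, the Th1 libraries 6.92 and 7.27, the Th2 libraries 13.1 and 14.5 and the Th17 libraries 20.2 and 24.4. Th17 libraries were highest and Th1 libraries lowest, and each lay outside the range of all other groups. The difference from naive cells was -1.0 in Th1 (adjusted p = 0.000233) and 0.52 in Th17 cells (adjusted p = 0.00557), and it did not pass in Th2 cells (-0.13, adjusted p = 0.346, limma). The standard error was 0.11. Th1 cells were below Th17 cells by a difference of -1.52, a 3.14-fold difference in mean FPKM (adjusted p = 0.000159), and below Th2 cells by -0.87 (adjusted p = 0.00114). Th17 cells were above Th2 cells by 0.65 (adjusted p = 0.00469). *Smad3* lies on the minus strand of chromosome 9 from 63646767 to 63757994.

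The 200 bases that precede the annotated transcription start are shown for *Tgfbr1*, *Tgfbr2* and *Smad3*, since these genes differed between the effector subsets. They are RefSeq sequences of GRCm38.p6, the assembly of mm10. Windows were found for 4 of the 10 members, the fourth being *Tgfb1*, and for *Tgfbr1* the window at the first exon is printed. Capitals mark matches on either strand of CAGAC, the short box that SMAD3 and SMAD4 bind, and of GGGCGG, the GC box bound by Sp1 family factors. The windows lie at chr4:47353022-47353221 on the plus strand for *Tgfbr1*, and on the minus strand at chr9:116175364-116175563 for *Tgfbr2* and chr9:63757995-63758194 for *Smad3*.
Tgfbr1: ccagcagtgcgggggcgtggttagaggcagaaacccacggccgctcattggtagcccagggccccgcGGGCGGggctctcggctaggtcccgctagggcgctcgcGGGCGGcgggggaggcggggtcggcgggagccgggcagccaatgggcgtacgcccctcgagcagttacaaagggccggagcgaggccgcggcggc
Tgfbr2: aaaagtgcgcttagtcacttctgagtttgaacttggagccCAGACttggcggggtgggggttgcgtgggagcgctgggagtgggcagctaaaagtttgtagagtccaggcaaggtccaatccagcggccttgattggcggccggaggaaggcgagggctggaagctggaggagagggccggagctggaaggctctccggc
Smad3: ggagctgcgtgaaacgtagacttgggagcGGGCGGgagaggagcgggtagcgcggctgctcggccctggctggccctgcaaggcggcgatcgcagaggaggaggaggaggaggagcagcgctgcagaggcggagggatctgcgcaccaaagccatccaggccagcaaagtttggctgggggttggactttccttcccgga
The *Tgfbr1* window holds 2 GC boxes and 0 SMAD boxes, the *Tgfbr2* window 0 GC boxes and 1 SMAD box, and the *Smad3* window 1 GC box and 0 SMAD boxes. Of the 32851 RefSeq windows of the same length, 35.5% held CAGAC and 31.0% held GGGCGG, so these matches are common. The G and C content was 76.0% for *Tgfbr1*, 61.5% for *Tgfbr2* and 67.0% for *Smad3*. Binding was not measured, and the matches describe the letters only.

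*Smad2* changed least of the 10 genes. The naive libraries had 6.85 and 6.98 FPKM, the Th1 libraries 4.69 and 4.57, the Th2 libraries 4.46 and 4.68 and the Th17 libraries 5.38 and 5.34. All effector libraries lay below both naive libraries. Relative to naive cells, the difference was -0.49, -0.51 and -0.32 in Th1, Th2 and Th17 cells, with a standard error of 0.08 and adjusted p-values of 0.00143, 0.00112 and 0.0111 (limma). The Th17 value lost its call when the first or the second Th17 library was left out (adjusted p = 0.051 and 0.055). The subsets did not differ past the threshold among themselves, with adjusted p-values of 0.0969 to 0.903. Within a library, the ratio of *Smad2* to *Smad3* FPKM was 0.470 and 0.442 in naive, with Th1 at 0.678 and 0.629, Th2 at 0.340 and 0.323 and Th17 at 0.266 and 0.219.

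*Smad4*, the partner shared by the TGF-β and BMP branches, fell in all 3 subsets. FPKM values in the naive libraries were 34.0 and 34.1, those in Th1 15.0 and 13.8, those in Th2 13.4 and 15.0 and those in Th17 13.3 and 13.4. The effector libraries lay far below the naive ones, and Th2 overlapped both other subsets. Compared with naive cells, the values differed by -1.19, -1.21 and -1.29 in Th1, Th2 and Th17 cells, with a standard error of 0.09 and adjusted p-values of 3.37e-05, 2.57e-05 and 2e-05 (limma). Between subsets the differences were -0.08 to 0.10, with adjusted p-values of 0.489 to 0.867.

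The naive libraries gave *Smad7* FPKM values of 35.0 and 38.2, the Th1 libraries 3.91 and 4.41, the Th2 libraries 4.06 and 5.19 and the Th17 libraries 5.70 and 6.78. The naive libraries stood far above all effector libraries. The difference from naive cells was -2.87, -2.75 and -2.38 in Th1, Th2 and Th17 cells, with a standard error of 0.13 and adjusted p-values of 3.13e-06, 3.08e-06 and 6.51e-06 (limma). Relative to *Smad3* in the same library, *Smad7* FPKM was 2.39 and 2.43 in naive, with Th1 at 0.566 and 0.607, Th2 at 0.310 and 0.357 and Th17 at 0.282 and 0.278. Th1 cells were below Th17 cells by a difference of -0.49 with an adjusted p-value of 0.0385. This call was lost when any naive, Th1 or Th17 library was left out (adjusted p = 0.056 to 0.208), after median scaling (0.0591) or quantile normalization (0.104), without a filter on low values (0.0594) and in a fit of the 2 groups alone (0.0586). Th17 and Th2 cells differed by 0.37 with an adjusted p-value of 0.0637, and with the replicate block of 0.00963. *Smad2*, *Smad4* and *Smad7* all lie on chromosome 18, at 76241701 to 76311747, 73639013 to 73703741 and 75367365 to 75395934.

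**Figure D3:**
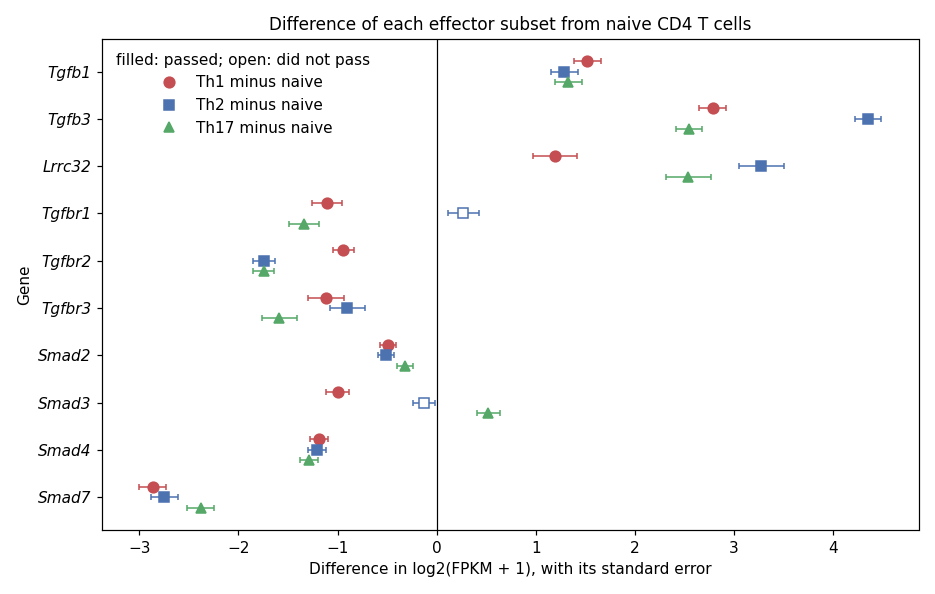
Difference in log2(FPKM + 1) of Th1, Th2 and Th17 cells from naive cells for the 10 genes, with the standard error of the fit as bars. Filled symbols passed an adjusted p-value of 0.05, and the 2 open symbols, *Tgfbr1* and *Smad3* in Th2 cells, did not.

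Between the subsets, 1 member was called higher and 4 lower in Th1 than in Th2 cells, where 27.4% of all tested genes were called higher and 16.9% lower. In Th17 against Th2 cells 1 was called higher and 4 lower, against 31.7% and 12.0% of all genes. In Th1 against Th17 cells 1 was called higher and 3 lower, against 9.17% and 16.0%. *Tgfb3*, *Tgfbr1* and *Lrrc32* were higher in Th2 than in both other subsets, *Smad3* and *Tgfbr2* were the members that set Th1 cells apart from both others together with *Lrrc32*, and *Tgfb1*, *Smad2* and *Smad4* were called in none of the 3 comparisons. The 3 comparisons share their libraries.

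The balance of higher and lower calls over all genes depends on the scaling. The median difference of all tested genes was 0.11 for Th1 against Th2 and 0.18 for Th17 against Th2 cells as deposited, and 0.03 and 0.02 after median scaling. For Th2 against naive cells it was -0.11 as deposited and 0.002 after median scaling. Against naive cells, quantile normalization turned 4197 genes higher and 3337 lower in Th17 into 3542 and 4193, and 3790 and 3750 in Th1 into 3413 and 4218. All calls of members against naive cells were kept under both scalings. As deposited, 3065 genes were called higher and 1896 lower in Th1 than in Th2 cells, and after quantile normalization 2436 and 2312. For Th17 against Th2 cells the numbers were 3546 and 1339 as deposited and 2264 and 2150 after quantile normalization, and for Th1 against Th17 cells 1027 and 1788, then 1347 and 1362. Of the 14 calls of members between subsets, 13 kept their direction and call under both scalings, the exception being *Smad7* in Th1 against Th17 cells.

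**Figure D4:**
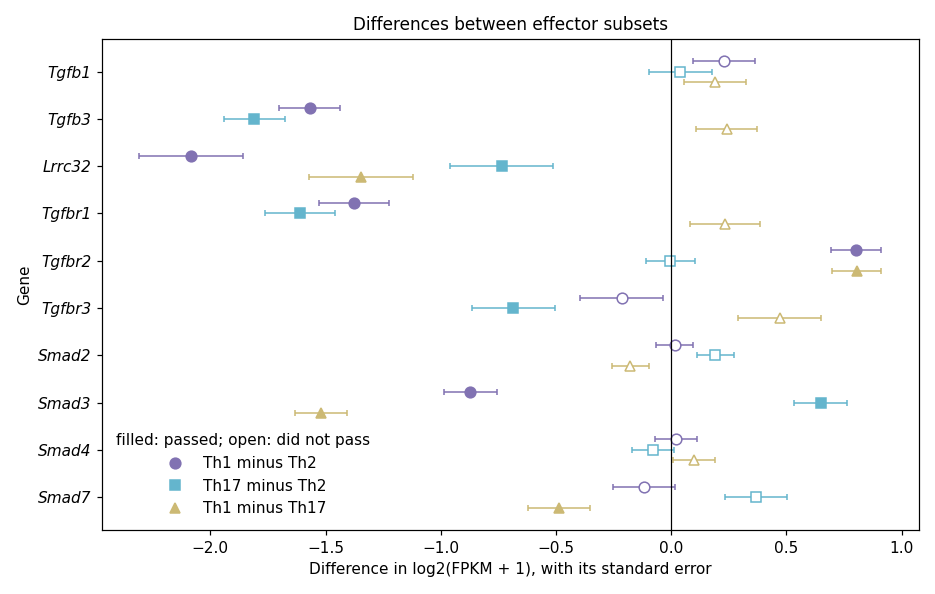
Difference in log2(FPKM + 1) between effector subsets for the 10 genes, with the standard error of the fit as bars. Filled symbols passed an adjusted p-value of 0.05 and open symbols did not. *Tgfb3*, *Lrrc32* and *Tgfbr1* have values below 0 in both comparisons with Th2 cells, and *Smad3* runs from -1.52 for Th1 minus Th17 to 0.65 for Th17 minus Th2.

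Another 45 genes of the pathway were read from 5 lists, of which 30 passed the filter on low values. That filter used the mean of all 8 libraries, most of them effector libraries, so it favoured genes that rise in effector cells. Of these 30, 12 passed as higher and 14 as lower in the Th1 against naive comparison, 13 and 13 for Th2, and 14 and 14 for Th17. Over all tested genes, 33.8% passed as higher and 33.5% as lower in the Th1 comparison, whereas Th2 had 31.8% and 38.7% and Th17 had 37.5% and 29.8%. The median difference of these 30 genes was -0.25, -0.17 and 0.13, beside -0.01, -0.11 and 0.08 over all tested genes. Among genes that handle the latent ligand, 4 of 11 were tested and 3 were called higher in each subset. Of these 3, *Ltbp3* passed the filter on low values only through the effector libraries, which favoured its call as higher. *Furin*, the protease that cleaves the TGF-β precursor, had an FPKM of 10.5 and 13.6 in naive, with Th1 at 287 and 432, Th2 at 22.6 and 25.9 and Th17 at 68.9 and 101. Its Th1 level exceeded that of Th2 and Th17 cells (log2 differences 3.81 and 2.07, adjusted p = 5.63e-05 and 0.00144), and its rise in Th2 cells, 0.96, lost its call without the first naive or the second Th2 library (adjusted p = 0.071 and 0.0725). *Ltbp3*, a latent TGF-β binding protein, had 0.018 and 0.009 in naive, with Th1 at 3.64 and 4.23, Th2 at 10.9 and 11.8 and Th17 at 2.83 and 3.04. Like *Tgfb3*, it was higher in Th2 than in Th1 and Th17 cells (Th1 and Th17 minus Th2 of -1.32 and -1.65, adjusted p = 0.000111 and 7.01e-05). *Itgav*, an integrin subunit of receptors that open the latent complex, rose by 1.92 to 2.23 in the 3 subsets. *Itgb8* and *Itgb6*, its partners in that role, were at most 0.167 and 0.010 in any library. *Nrros*, listed under its older symbol *Lrrc33* and related to *Lrrc32*, fell by 1.29 in Th2 and by 1.79 in Th17 cells, and its difference of -0.33 in Th1 cells did not pass.

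Of the receptors of related ligands, 6 of 10 were tested, and 5 of these were called higher and 1 lower in every subset, beside 31.8% to 37.5% of all tested genes called higher and 29.8% to 38.7% called lower. The gene that fell was *Acvr1b*, the activin type I receptor that signals through SMAD2 and SMAD3, with differences of -1.19, -1.29 and -1.39 in Th1, Th2 and Th17 cells. Those that rose were *Bmpr1a* (2.12, 2.64 and 1.95 in the same order), *Acvr1* (1.73, 0.95 and 1.92), *Acvrl1* (1.60, 1.50 and 1.28), *Bmpr2* (0.81, 1.61 and 1.46) and the co-receptor *Eng* (1.36, 1.16 and 2.40). These 5 genes had an FPKM of at most 0.704 in a naive library and 1.12 to 8.23 in effector libraries. They passed the filter on low values only through the effector libraries. The filter thus favoured calls as higher, and the count of 5 is no result about these receptors. With quantile normalization, the value of *Bmpr2* in Th1 cells was 0.38 with an adjusted p-value of 0.0849. Of the BMP branch SMADs, *Smad5* had an FPKM of 19.6 and 21.8 in naive, with Th1 at 5.19 and 5.17, Th2 at 16.9 and 16.5 and Th17 at 16.9 and 15.0. Its fall in Th1 cells, by 1.81, was larger than in the other subsets (Th1 minus Th2 of -1.52 and Th1 minus Th17 of -1.45, adjusted p = 4.3e-05 and 9.14e-05). The differences from naive were -0.29 in Th2 and -0.36 in Th17 cells (adjusted p = 0.0276 and 0.0135, limma). The Th2 call was lost after median scaling (0.179) and quantile normalization (0.184). Both were lost in fits of the 2 groups alone (0.0636 and 0.0534) and in some fits with a library left out. The inhibitor *Smad6* was at most 0.180 in any library, in contrast to *Smad7*.

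Among regulators of SMAD proteins, 14 of 16 were tested, and against naive cells 10 were called lower and 3 higher in Th1, whereas Th2 had 8 lower and 3 higher and Th17 had 9 lower and 3 higher. The share of all tested genes called lower was 33.5%, 38.7% and 29.8% in the same order, and called higher 33.8%, 31.8% and 37.5%. The co-repressor gene *Ski* fell by 0.98, 1.59 and 0.72 in Th1, Th2 and Th17 cells, and the ubiquitin ligase gene *Smurf1* by 0.91, 1.44 and 1.10. *Smurf2*, which together with SMAD7 marks the receptor for degradation, fell by 0.86 in Th1 and 1.02 in Th17 cells, and its difference in Th2 cells was -0.14 (adjusted p = 0.302). *Nedd4l* had the same pattern, with falls by 1.24 and 1.08 in Th1 and Th17 cells and a difference of -0.20 in Th2 cells (adjusted p = 0.247). *Smurf2* and *Nedd4l* were thus, like *Tgfbr1*, higher in Th2 cells than in Th1 cells (Th1 minus Th2 of -0.72 and -1.04, adjusted p = 0.00306 and 0.00145) and than in Th17 cells (Th17 minus Th2 of -0.88 for both, adjusted p = 0.00153 and 0.00337). *Tgfbrap1* fell by 1.08, 1.12 and 0.58 in Th1, Th2 and Th17 cells, and *Ldlrad4*, listed under an older symbol, by 1.24 and 0.58 in Th1 and Th2 cells. In Th17 cells *Ldlrad4* differed from naive by -0.30 (adjusted p = 0.0373, limma). That call was lost with a pseudocount of 0.1 (0.0724), in a fit of the 2 groups alone (0.0518) and in some fits with a library left out. *Wwp1* rose by 1.40, 1.04 and 0.67. *Tgif1* was lower in Th1 than in Th17 cells (-1.07, adjusted p = 0.00652, and 0.0528 without the first Th17 library).

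The last list held genes known to be regulated by TGF-β in T or other cells, and *Itgae* and *Foxp3* are described from it. *Itgae*, the CD103 integrin subunit, had 0.650 and 0.907 in naive, with Th1 at 0.728 and 0.709, Th2 at 2.47 and 2.11 and Th17 at 3.57 and 5.01. It was higher in Th17 than in Th1 cells (Th1 minus Th17 of -1.61, adjusted p = 0.000519). *Itgae* passed the filter on low values only through the Th2 and Th17 libraries, which favoured that direction. Its difference between Th17 and Th2 cells, 0.68 with an adjusted p-value of 0.0139, lost its call without the second Th2 or the second Th17 library (adjusted p = 0.0778 and 0.06). *Foxp3*, the lineage factor of regulatory T cells, had 6.68 and 12.8 in naive, with Th1 at 0.874 and 1.13, Th2 at 0.423 and 0.541 and Th17 at 3.03 and 5.76, and its values in Th17 cells against naive (-0.98, adjusted p = 0.031) and against Th1 cells (Th1 minus Th17 of -1.39, adjusted p = 0.0214) each lost their call when some single library was left out. For the former these were the second naive, either Th2 and the first Th17 library (0.0568 to 0.175), and for the latter either Th1 and the second Th17 library (0.0778 to 0.117). The *Foxp3* difference of Th17 from naive cells also lost its call without a filter on low values and in a fit of the 2 groups alone (adjusted p = 0.0615 and 0.0909). Th17 cells were above Th2 cells in *Foxp3* by 1.82 (adjusted p = 0.0049).

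**Figure D5:**
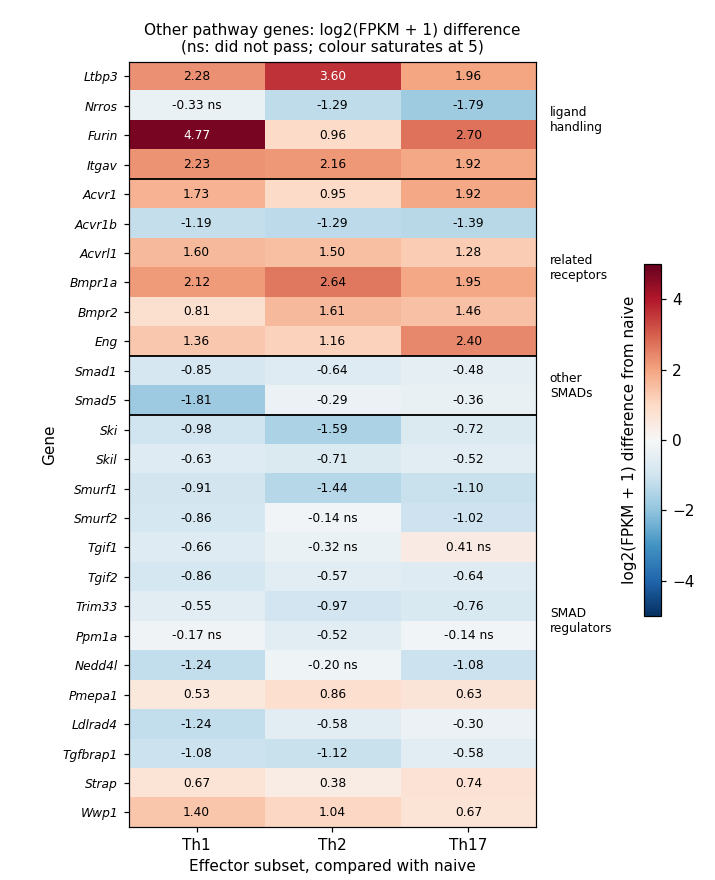
Difference in log2(FPKM + 1) of each effector subset from naive cells for the tested genes of 4 pathway lists outside the 10 members (ligand handling, related receptors, other SMADs and SMAD regulators), grouped by list. Colour runs from blue (lower) to red (higher), each cell prints its value, and ns marks values that did not pass an adjusted p-value of 0.05. The 5 receptor genes from *Acvr1* to *Eng* other than *Acvr1b* are red in all 3 columns, and *Furin* reaches 4.77 in Th1 cells.

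For the 3 members with the widest range of group means, the tested genes with the nearest profile over the 8 libraries were found by the root mean square difference of centred log2(FPKM + 1) values. For *Tgfb3* these were *Aplp1*, *Slc41a2* and *P4hb*, at differences of 0.194, 0.246 and 0.277. For *Lrrc32* they were *Bcar1*, *Sept8* and *Apln*, at 0.190, 0.239 and 0.245. For *Smad7* they were *Sfn*, *Gabrr2* and *Npff*, at 0.124, 0.135 and 0.143. The points behind each profile are 4 groups of 2 libraries. Nearness on this scale depends on the pseudocount and does not mean an equal fold change. Mean FPKM in naive and Th2 cells was 63.3 and 1028 for *P4hb*, and 0.103 and 21.7 for *Tgfb3*. In naive and Th1 cells it was 6.70 and 0.031 for *Gabrr2*, and 36.6 and 4.16 for *Smad7*. The range of group means was 4.35 for *Tgfb3*, 3.28 for *Lrrc32* and 2.87 for *Smad7*, and 3.3%, 7.4% and 9.9% of tested genes had a wider range.

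The labels were checked against markers. The 3 Th1 markers summed to an FPKM of 898 to 1040 in Th1 libraries, and the 3 Th2 markers to 373 to 406 in Th2 libraries. Elsewhere the Th1 markers summed to 0.987 to 1.691 in naive, 30.18 to 37.94 in Th2 and 112.3 to 132.5 in Th17 libraries. In Th2 and Th17 cells most of this was *Il12rb2*, with means of 33.05 and 119.4. The Th2 markers summed to 20.19 to 20.45 in naive, 6.7 to 9.215 in Th1 and 17.92 to 26.18 in Th17 libraries. The Th17 cytokine gene *Il17a* had 347 and 335 FPKM in Th17 libraries and at most 0.711 elsewhere, and *Il17f* 979 and 1013 against at most 1.01. The CD4 T cell markers summed to 810 to 1352 in every library, and the naive markers to 791 to 835 in naive and 111 to 363 in effector libraries. The CD8 T cell markers summed to 54.6 and 93.4 in naive and 8.94 to 13.0 in effector libraries, nearly all of it *Cd8b1*. B cell markers summed to 2.32 to 12.1, macrophage and monocyte markers to 12.2 to 34.1, and dendritic cell markers to 0.708 to 3.90. The macrophage and monocyte sum was highest in Th2 libraries, where *Lyz2*, *Cd68* and *Adgre1* had their highest group means. The other markers of that list did not peak there. *Csf1r* was highest in naive cells (mean 3.52, and 0.915 in Th2), and *Cd14* in Th17 cells (4.08, and 0.548 in Th2). Stromal and endothelial markers summed to 22.7 to 66.9, nearly all of it *Pecam1*, and *Pdgfra* was at most 0.01. The part of such cells in the members' values was not tested. Depth, estimated from the confidence intervals, was 14463466 to 21058286 fragments per library and lowest in naive cells, and the members had an estimated 5 to 8675 fragments. These numbers cover counting error only, and *Tgfbr2* in the Th17 libraries, with 3019 and 1215 at nearly equal FPKM, shows that they are rough.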

How the data were processed

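RNA from 8 libraries (2 each of naive, Th1, Th2 and Th17 cells) was sequenced by the authors as 50-base reads, aligned to mm10 with Bowtie 0.12.8 and TopHat 1.3.2, and deposited as FPKM per gene with a confidence interval from Cufflinks 2.0.2 (versions from the submitters' processing notes and the methods). The gene annotation and a further scaling are not given in the sources used here. The labels name a stranded kit and the methods one that keeps no strand.

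FPKM of rows with one symbol were summed. Genes averaging 1 FPKM or more were tested on log2(FPKM + 1) with limma 3.58.1 (R 4.3.3, lmFit and eBayes with trend, two-sided), all 4 groups sharing one spread, with Benjamini-Hochberg adjustment over all of them. The model was also run on simulated data with independent noise and few changed genes. In the real data many genes differed from naive cells and libraries of one replicate number deviated together. The simulation therefore does not measure the error rate here. Tables used Python 3.11.15, pandas 2.3.3 and numpy 2.4.6, and figures matplotlib 3.10.9. Fragments were estimated as the square of FPKM over its standard deviation, the upper interval being taken as 2 standard deviations. Overlaps were read from GENCODE M21. With 2 libraries per group an SD is rough, and the labels do not say whether libraries came from separate animals or cultures. The p-values therefore set differences against the spread between these libraries, as estimated by the fit. That spread may not be the one between animals. Libraries of one replicate number deviated together (correlations of replicate differences 0.138 to 0.294 over the 6 pairs of groups), so the blocked fit is quoted wherever a call changed under it.

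The members, the 5 further lists and the markers were chosen with earlier results of these data known. Named were all 10 members, the pathway genes called with a difference of at least 1 in some comparison (23 genes, some of them not reported here), 3 nearest genes for each of 3 members, and markers. *Itgb8*, *Itgb6*, *Smad6*, and the ratios between members, were added after the values were seen. Alternatives were 2 other filters on low values, a pseudocount of 0.1, median scaling, quantile normalization, the 2 groups alone, no trend, the replicate block, the highest row of a symbol, each library left out and, chosen after seeing the data, genes with an estimation status of OK throughout.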

Additional observations from a re-analysis of the deposited data

Results flagged for a closer look

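The difference between effector subsets was itself tested for each of the 10 genes (limma, adjusted over all tested genes), and 14 differences passed. Between Th1 and Th2 cells these were -2.08 for *Lrrc32*, -0.87 for *Smad3*, -1.57 for *Tgfb3*, -1.38 for *Tgfbr1* and 0.80 for *Tgfbr2*. Between Th17 and Th2 cells they were -0.74 for *Lrrc32*, 0.65 for *Smad3*, -1.81 for *Tgfb3*, -1.61 for *Tgfbr1* and -0.69 for *Tgfbr3*. Between Th1 and Th17 cells they were -1.35 for *Lrrc32*, -1.52 for *Smad3*, -0.49 for *Smad7* and 0.80 for *Tgfbr2*. *Smad3* is the gene whose difference from naive cells was called in opposite directions, lower in Th1 and higher in Th17 cells. The values of *Lrrc32* and *Tgfbr3* between Th17 and Th2 cells and of *Smad7* between Th1 and Th17 cells depend on single libraries, as given above.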

How the results depend on the processing

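Of 1080 values of members under 18 alternatives, 1037 stayed the same in sign and call, 22 lost their call, 5 gained one and 16 changed sign. Much of this sameness was fixed by the settings. The other filters, no trend, the 2 groups alone, the block, the highest row and the OK status could change calls of members only. A library left out could not change a difference between other groups. The count of 1037 therefore overstates how far the values were put to a test. The number of members called, with each library left out in turn, was 10 in every fit for Th1 against naive, 8 for Th2 against naive, 9 to 10 for Th17 against naive, 5 for Th1 against Th2, 3 to 5 for Th17 against Th2 and 3 to 4 for Th1 against Th17. The 3 arose without the first Th17 library, where *Lrrc32* and *Tgfbr3* lost their call, and such a fit assumes that the lone library varies like the others. The replicate block left every difference as it was, and with the block 10, 9, 10, 5, 6 and 5 members were called in the same order. It lost no call of a member and gained *Tgfbr1* in Th2 against naive, *Smad7* in Th17 against Th2 and *Tgfbr3* in Th1 against Th17. None of the 16 changes of sign touched a called value. After median scaling they were *Smad3* in Th2 against naive (0.0019), *Smad2* and *Smad4* in Th1 against Th2 (-0.0645 and -0.0673) and *Tgfb1* in Th17 against Th2 (-0.143). After quantile normalization they were *Smad2* and *Smad4* in Th1 against Th2 (-0.0656 and -0.0803) and *Tgfb1* and *Smad2* in Th17 against Th2 (-0.0934 and -0.0236). With a library left out, *Smad2* in Th1 against Th2 ran from -0.0143 to 0.0431 (below 0 without the first Th1 or the first Th2 library), *Smad4* from -0.0546 to 0.0989 (the same libraries), *Smad7* from -0.264 to 0.026 (above 0 without the second Th2), and in Th17 against Th2 *Tgfbr2* from -0.105 to 0.0975 (above 0 without the first Th2 or the first Th17) and *Tgfb1* from -0.0927 to 0.173 (below 0 without the second Th17). Of 129 calls in the other pathway genes, 116 to 129 were kept under each alternative and none changed sign. The cause of these changes was not tested.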
